A study of Mus musculus with 3 samples.

Results

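RNA of the EGF receptor ligand genes was measured in macrophages of the mouse heart, kidney and liver. The 9 genes were Areg, Ereg, Hbegf, Egf, Tgfa, Btc, Epgn, Nrg1 and Nrg4, found by symbol, with the longest coding RefSeq transcript standing for each. They are 9 of 24453 gene symbols, and levels are in RPKM, that is, reads per kilobase of exon for each 1000000 reads. Of the 9 genes, 7 had at least 1 read in some library, while Tgfa and Epgn had 0 reads in all 3. Only Areg, Hbegf, Egf and Nrg4 reached 1 RPKM in at least 1 library, the filter that 11482 genes passed. The cells came from C57BL/6 mice aged 8 weeks in the steady state, with no treatment named, and there was 1 library for cardiac macrophages, 1 for renal macrophages and 1 for liver macrophages labelled as Kupffer cells. Sorting kept cells with CD11b and F4/80 on their surface and removed those with Ly6G or Ly6C, and RNA was amplified with a kit for very small inputs. The number of animals behind each library is not given in the sources used here.

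EGF family ligands are made as membrane-anchored precursors, and proteases of the ADAM family cut them free. The released ligand binds a receptor of the ERBB family, the receptors pair, and RAS and ERK signalling follows inside the receiving cell. Amphiregulin, encoded by Areg, and heparin-binding EGF, encoded by Hbegf, are known products of macrophages, and amphiregulin is known from tissue repair. EGF itself is known in mice as a product of the kidney tubule.

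The bases before the transcription starts of Areg and Egf are shown because these genes led the ligand RNA of the heart and the kidney library. Both stretches are RefSeq sequence of GRCm38.p6, 250 bases each, written 5′ to 3′ on the strand of the gene and ending at the base before the start. Capitals mark the cAMP response element TGACGTCA and the TATA box TATAAA.
Areg, chr5:91139349-91139598, plus strand: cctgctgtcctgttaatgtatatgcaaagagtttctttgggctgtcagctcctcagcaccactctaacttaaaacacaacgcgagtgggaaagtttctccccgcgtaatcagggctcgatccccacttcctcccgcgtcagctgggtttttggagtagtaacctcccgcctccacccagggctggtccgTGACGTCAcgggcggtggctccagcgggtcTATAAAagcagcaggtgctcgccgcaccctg
Egf, chr3:129755323-129755572, minus strand: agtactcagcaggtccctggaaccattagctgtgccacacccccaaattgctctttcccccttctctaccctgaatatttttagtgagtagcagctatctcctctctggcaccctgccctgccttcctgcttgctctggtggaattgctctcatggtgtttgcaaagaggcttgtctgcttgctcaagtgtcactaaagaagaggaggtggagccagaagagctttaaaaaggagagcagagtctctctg
The Areg stretch held TGACGTCA beginning 61 bases before the start and TATAAA beginning 31 bases before it. TGACGTCA, a palindrome that binds CREB family factors, occurred on either strand in 1.55% of 32851 such windows, and TATAAA, searched on both strands, in 12.4%. The AP-1 site TGANTCA, occurred in 6.75% of the windows. The Egf stretch held none of the 3 motifs. Windows were found for 6 of the 9 ligand genes (Areg, Egf, Tgfa, Btc, Epgn and Nrg4, with a second window for the internal start of Egf), and TGACGTCA was in the Areg window alone among these 7. A match is a description of the sequence and shows no binding.

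The depth recovered from the RPKM values was 14460621 to 16743407 reads per library summed over all transcripts, in which a read counts once for each transcript it overlaps, and 8751978 to 10373696 with 1 transcript per gene. There were no replicates, so every difference describes these 3 libraries and was not set against variation between animals. Intervals are exact 95% Poisson intervals of the reads, ratios have exact 95% intervals from the share of reads in either library, and both cover only the error of counting, as copies made by PCR could not be told from separate molecules. A count of 0 reads is read as at most 3 reads. A ratio given as at least a value divides the measured level by that of 3 reads. It leaves out the counting error of the measured level and is not a 95% limit. A difference of at least 2 units of log2(RPKM + 1), 4-fold on that scale, counted as apart. The 10 macrophage markers, Lyz2, Adgre1 and Csf1r among them, all had at least 1 RPKM in each library and summed to 2355, 2607 and 2635 RPKM in the heart, kidney and liver library. Lyz2 had 9.12, 6.65 and 10.5 reads per base of exon there. The limit of 3 tags per position named in the file header may hold down such values, which was not tested. All 5 Kupffer cell markers had reads in the liver library, 2 of 5 in the heart and none in the kidney library.

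Each library was led by a different ligand. The summed level of the 9 genes was 119 RPKM in the heart, 35.5 in the kidney and 20.3 in the liver library. Areg made up 68% of the sum in the heart library and Hbegf 30.3%. In the kidney library Egf made up 83%, Hbegf 7.03% and Areg 6.3%. Hbegf alone made up 95% of the sum in the liver library, and Egf 4.85%. These shares compare genes within a library, per length of transcript, and do not depend on the scaling between libraries.

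**Figure D1:**
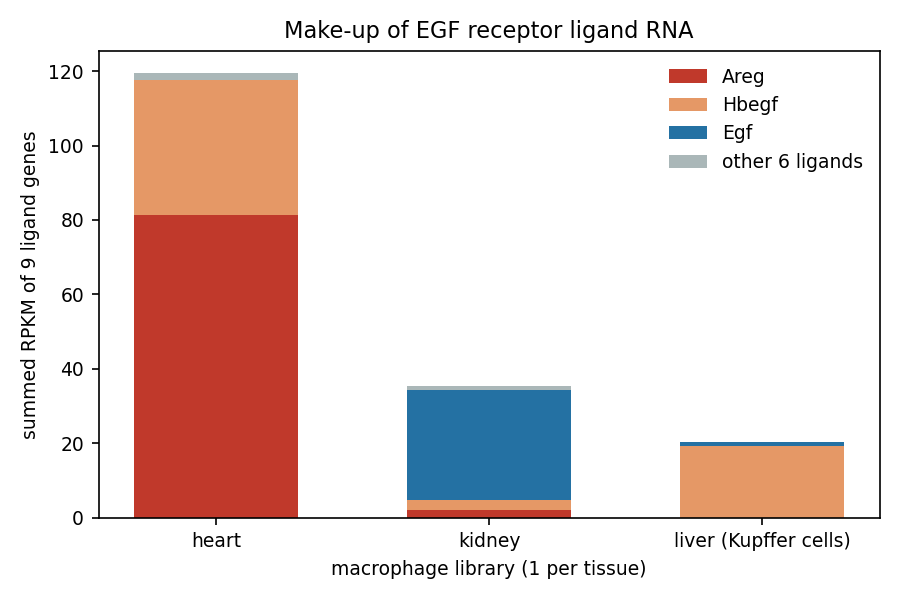
Summed RPKM of the 9 ligand genes in the heart, kidney and liver library (1 per tissue), stacked by gene. The bar reaches 119 RPKM in the heart, most of it Areg, 35.5 in the kidney, most of it Egf, and 20.3 in the liver, nearly all of it Hbegf.

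Areg encodes amphiregulin, a low-affinity ligand of EGFR. It stood at 81.3 RPKM in the heart library (95% interval 77.1 to 85.6, 1419 reads), at 2.24 in the kidney library (1.61 to 3.02, 42 reads) and at 0 in the liver library, where 3 reads would be 0.148 RPKM. The heart library was far above both others, and the kidney library stood above the limit of the liver library. Areg was 36.3-fold higher in the heart than the kidney library (counting interval 26.7 to 50.6), at least 548-fold higher for heart over liver and at least 15.1-fold higher for kidney over liver. In bulk RNA, fewer cells that make a transcript and less of it per cell cannot be told apart. Within the heart library 92.2% of the genes compared stood lower than Areg. The difference of 6.36 log2 units for heart minus liver was in place 10 from the top among 11482 genes, and the difference of 4.67 for heart minus kidney in place 26. Areg had 1.18 reads per base of exon in the heart library, and the limit of 3 tags per position named in the file header may hold down such a value, which was not tested. The gene lies on mm10 chromosome 5, 91139599 to 91148432, on the plus strand, has 6 exons in GENCODE M21 and shares no exon base with another annotated gene.

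Hbegf encodes heparin-binding EGF, which binds EGFR and ERBB4 and was found as a product of macrophage-like cells. Its level was 36.2 RPKM in the heart (34.2 to 38.3, 1239 reads), 2.5 in the kidney (2.01 to 3.07, 92 reads) and 19.3 in the liver library (17.9 to 20.7, 764 reads). The 3 intervals did not overlap, and the kidney library was the low one. Hbegf was 14.5-fold higher in the heart than the kidney library (11.7 to 18.1) and 1.88-fold higher in the heart than the liver library (1.71 to 2.06). The kidney library was lower than the liver library by 2.53 log2 units, and the level was 7.71-fold higher in the liver (6.21 to 9.68). In the heart library 85.2% of the genes compared stood lower than Hbegf, against 31.1% in the kidney and 74.5% in the liver library. Hbegf lies on chromosome 18, 36504927 to 36515805, on the minus strand.

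Egf encodes the precursor of epidermal growth factor. It had 0 reads in the heart library, where 3 reads would be 0.0439 RPKM, stood at 29.5 RPKM in the kidney library (28.3 to 30.8, 2170 reads) and at 0.985 in the liver library (0.779 to 1.23, 78 reads). The order of the 3 libraries was thus unlike that of Areg and Hbegf, with the kidney library highest and the heart library lowest. Egf was at least 673-fold higher for kidney over heart and 30-fold higher in the kidney than the liver library (23.9 to 38). Its difference of -4.93 log2 units for heart minus kidney was in place 9 from the bottom among 11482 genes. Egf lies on chromosome 3, 129677577 to 129755322, on the minus strand, and shares 9.82% of its exon bases with 2 other annotated genes, 6330410L21Rik and Gm42697, whose reads the counting on both strands cannot separate.

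The summed levels of nephron markers were, like Egf, highest in the kidney library. The list of 8 genes of the thick ascending limb and distal tubule summed to 0.063 RPKM in the heart, 306 in the kidney and 0 in the liver library. In the kidney library 6 of its 8 genes had reads, with Umod (uromodulin) at 215, Slc12a1 (the sodium, potassium and chloride cotransporter) at 63.4 and Kcnj1 (a potassium channel) at 23 RPKM, while Pvalb and Trpm6 were at 0. The 5 genes of the collecting duct summed to 47.5 RPKM in the kidney library and 0 in both others, and the 5 epithelial genes to 0, 15.3 and 2.34 RPKM in the heart, kidney and liver library. The 6 genes of the proximal tubule summed to 1.69 RPKM in the kidney library, with Slc22a6 and Slc22a12 at 0. The part of nephron RNA in the Egf value was not tested.

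The table holds 2 transcripts of Egf that end at the same base, a long one of 4729 bases and one of 3325 bases that starts inside the gene. In GENCODE M21 the long form has 24 exons and 1449 bases of its own, and the short form 19 exons and 34 bases of its own. The kidney library had 2170 reads on the long and 1791 on the short transcript, so at least 379 reads fell on bases of the long form alone. In the liver library the counts were 78 and 80, so at least 2 reads fell on the bases of the short form alone. With at most 80 reads in the liver library, the use of the 2 starts was not compared between tissues.

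Ereg encodes epiregulin, a ligand of EGFR and ERBB4, and is the nearest ligand gene to Areg on the chromosome. It stood at 0.569 RPKM in the heart library (0.394 to 0.796, 34 reads) with 0 reads in the kidney and the liver library, where 3 reads would be 0.0467 and 0.0434 RPKM. The heart library thus held the only Ereg reads, at least 12.2-fold above the kidney and at least 13.1-fold above the liver library. At this level it did not pass the filter of 1 RPKM. Ereg shares 3.42% of its exon bases with Gm19610.

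Nrg4 encodes neuregulin 4, a ligand of ERBB4 known from brown fat. Its level was 1.19 RPKM in the heart (0.819 to 1.67, 33 reads), 0.805 in the kidney (0.516 to 1.2, 24 reads) and 0.031 in the liver library (1 read). Heart and kidney did not differ beyond counting error, with a ratio of 1.48 (0.848 to 2.61). The liver library was lower than both, with ratios of 38.2 for heart over liver (6.4 to 1554) and 25.8 for kidney over liver (4.21 to 1063) that rest on a single liver read. Nrg4 shares 7.17% of its exon bases with Fbxo22.

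Nrg1 encodes neuregulin 1, a ligand of ERBB3 and ERBB4 with many isoforms, of which the table holds 1. It had 7 reads in the heart (0.231 RPKM, 0.093 to 0.477), 12 in the kidney (0.369 RPKM, 0.191 to 0.644) and 0 in the liver library. The ratio of heart over kidney was 0.627 (0.209 to 1.73), so these did not differ beyond counting error. Btc, which encodes betacellulin, had 5 reads in the kidney library (0.112 RPKM, 0.0364 to 0.262) and 0 in both others. Tgfa, the gene of transforming growth factor alpha, and Epgn, that of epigen, had 0 reads throughout, where 3 reads would be 0.0395 to 0.0457 RPKM for Tgfa and 0.106 to 0.122 for Epgn. Of the neuregulin genes left out of the 9, Nrg2 had 1 read in the kidney library and Nrg3 1 read in the liver library.

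**Figure D2:**
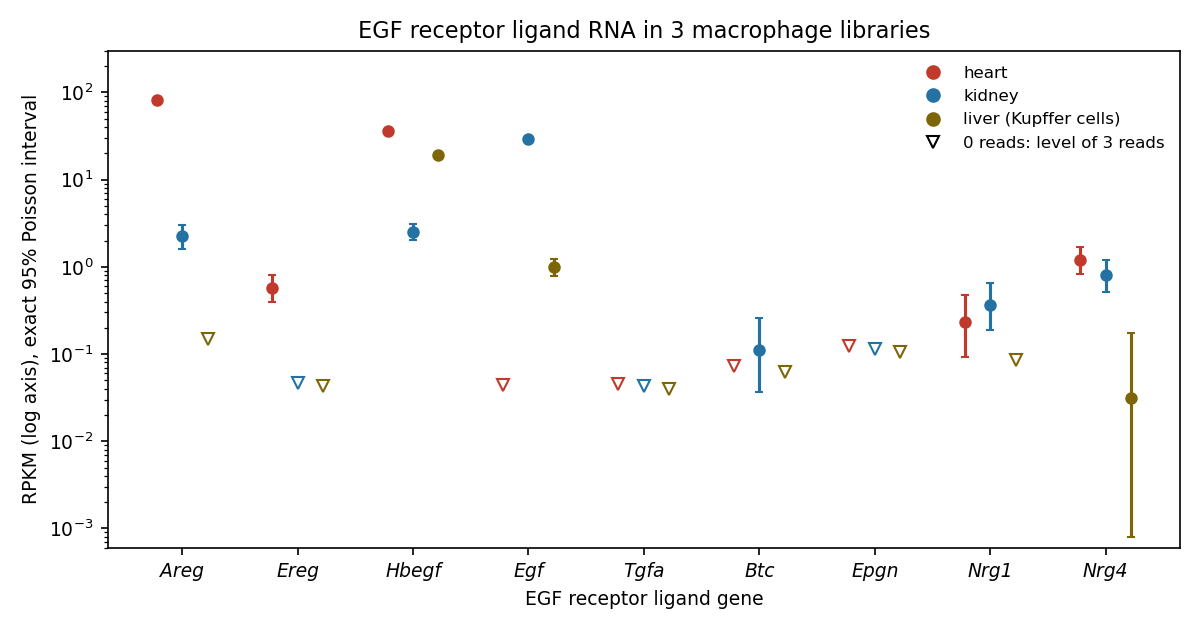
RPKM on a log axis for each of the 9 ligand genes in the heart, kidney and liver library, with exact 95% Poisson intervals; open triangles stand at the level of 3 reads where a library had 0. Areg runs from 81.3 RPKM in the heart to 0 reads in the liver, Hbegf is lowest in the kidney and Egf is highest there, and Tgfa and Epgn have no reads.

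Between the heart and the liver library, 1 of the 4 ligand genes compared was at least 4-fold higher for the heart (Areg) and none at least 4-fold lower, against 5.33% higher and 7.13% lower (12.5% apart) among all 11482 genes. For heart against kidney 2 were higher (Areg and Hbegf) and 1 lower (Egf), against 2.4% and 5.1% of all genes (7.5% apart). For kidney against liver 1 was higher (Egf) and 1 lower (Hbegf), against 7.57% and 5.1% (12.7% apart). The median difference of the 4 genes was 0.98, 1.84 and 1.25 log2 units in these comparisons, against -0.16, -0.23 and 0.04 for all genes. A gene passed the filter through the library where it was high and the 9 genes were chosen with earlier results of these data known, so the counts are descriptions. The comparisons share libraries and are not independent of each other. With median ratio scaling the split of all genes for heart against liver changed to 772 higher and 670 lower, against 612 higher and 819 lower as deposited, and for heart against kidney to 342 and 415, against 275 and 586, with the same ligand genes apart. With TPM, under which a pseudocount of 1 weighs less, it was 1458 higher and 1262 lower for heart against liver.

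Areg, Ereg, Epgn and Btc lie in 1 stretch of chromosome 5, which also holds CXC chemokine genes. The table has 11 genes within 250 kb of any of the 4 ligand genes, these included. Cxcl1, a neutrophil chemokine that starts at -248.4 kb from the start of Areg, stood at 393 RPKM in the heart, 81.8 in the kidney and 14.6 in the liver library. Cxcl3, of the same family, starts at -353.5 kb from the start of Areg, within 250 kb of Epgn but not of Areg. It stood at 186, 11.8 and 8.26 RPKM. Both were highest in the heart library, as Areg was, with Cxcl1 26.8-fold (23.5 to 30.7) and Cxcl3 22.5-fold (19 to 26.9) above the liver library. Cxcl2 lies beside Cxcl1 and stood at 583, 348 and 314 RPKM, so it was high in all 3 libraries. It was 1.86-fold higher in the heart than the liver library (1.8 to 1.92). Cxcl2 had 8.42, 5.41 and 5.25 reads per base of exon, Cxcl1 had 5.68, 1.27 and 0.245, and Cxcl3 had 2.69 in the heart library. The limit of 3 tags per position may hold down such levels and with them the ratios of these chemokine genes, which was not tested. Mthfd2l, a mitochondrial folate enzyme between the chemokines and Epgn, stood at 2.2, 0.058 and 0.053 RPKM (71, 2 and 2 reads). The ratio of its levels was 41.1 for heart over liver (11 to 346) and 38.2 for heart over kidney (10.2 to 321). At this low level its differences of 1.6 units of log2(RPKM + 1) did not count as apart. On the other side of Areg, Btc had its 5 reads in the kidney library, and Parm1 stood at 1.14 RPKM in the kidney library (37 reads) with 0 reads in both others. Epgn, Cxcl15 and the noncoding Gm19619 had 0 reads in every library. Of the 11 genes 6 were compared. Of these, 3 (Cxcl1, Cxcl3 and Areg) were at least 4-fold higher for heart over liver, where 5.33% of all genes were. The same 3 were higher for heart over kidney, where 2.4% were. Cxcl1 alone was higher for kidney over liver, where 7.57% were. The window was drawn around Areg and the other ligand genes, so Areg was in these counts by choice and the counts are descriptions. Ereg starts at -65 kb from the start of Areg and stood at 0.569 RPKM in the heart library, far below Areg.

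**Figure D3:**
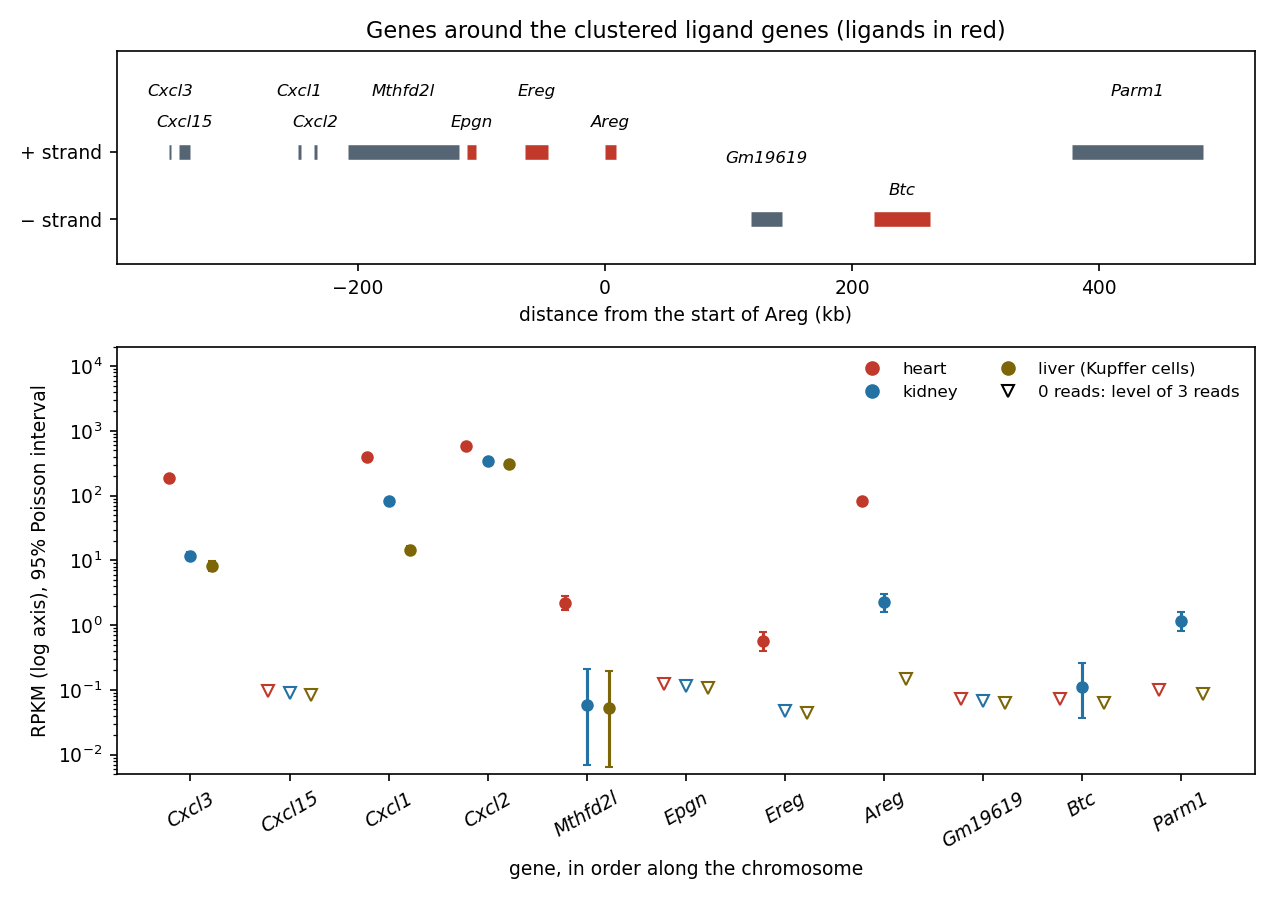
Top, positions of the 11 genes as distance from the start of Areg in kb, by strand, with ligand genes in red; bottom, their RPKM (log axis, 95% Poisson intervals, open triangles at the level of 3 reads for 0 reads) in the heart, kidney and liver library. Cxcl3, Cxcl1 and Areg, at 186, 393 and 81.3 RPKM in the heart, lie at least 4-fold above both other libraries on log2(RPKM + 1). Mthfd2l and Ereg are also highest in the heart, at the low levels of 2.2 and 0.569 RPKM. Cxcl2 has the highest level of the stretch in each library, and Epgn has 0 reads.

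Receptors for these ligands were low or undetected. Egfr, which binds amphiregulin, EGF and heparin-binding EGF, stood at 2.2 RPKM in the heart library (189 reads), 0.098 in the kidney library (9 reads) and 0 in the liver library. It was 22.6-fold higher in the heart than the kidney library (11.6 to 50.2) and at least 72.9-fold higher for heart over liver. Erbb3, a neuregulin receptor with a weak kinase, had the other order, at 0.173 RPKM in the heart (10 reads), 1.27 in the kidney (79 reads) and 1.41 in the liver library (94 reads). Kidney and liver did not differ beyond counting error for Erbb3, with a ratio of 0.905 (0.662 to 1.23). Erbb2, the partner receptor without a ligand of its own, had 2, 1 and 1 reads, and Erbb4, the receptor of Nrg4, had 0, 11 and 0 reads. Neither Egfr nor Erbb3 was past 2 log2 units on log2(RPKM + 1) in any comparison.

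Fibroblast markers summed highest in the heart library, where Areg and Egfr were highest too. The 6 fibroblast genes summed to 151 RPKM in the heart, 0.775 in the kidney and 8.46 in the liver library. Dcn (decorin) stood at 125 and Lum (lumican) at 21 RPKM in the heart, and the other 4 genes there between 0.8 and 1.78. Unlike Areg and Egfr, the sum was higher in the liver than the kidney library, mostly through Dcn at 8.15 against 0.48 RPKM. Col1a1 had the same order, while Col1a2 and Col3a1 had 7 and 13 reads in the kidney and 0 in the liver library. Lum and Pdgfra had 0 reads in both. The dendritic cell list summed to 283, 18.3 and 10.9 RPKM, of which Cd209a, a C-type lectin, made 270 in the heart library, while Flt3, the growth factor receptor of these cells, had 0.019. The other dendritic cell genes had no common order, with Zbtb46 at 2.23, 0.15 and 0 RPKM, Ccr7 at 9.2, 3.66 and 9.31, Xcr1 at 1.07, 3.11 and 1.62 and Itgae at 0, 0.507 and 0. Cardiomyocyte markers summed to 12.1, 4.13 and 0.041 RPKM, and neutrophil markers to 6.61, 0.161 and 0.065. The cardiomyocyte and dendritic cell sums had the order of Areg, heart over kidney over liver. The neutrophil sum was highest in the heart library too. In the kidney and liver library no neutrophil gene had more than 2 reads, so the order of those sums is not read. Among cells known to make amphiregulin, mast cells and basophils had 7 of 8 markers at 0 in all 3 libraries. Their marker Kit stood at 0.268, 1.434 and 1.725 RPKM. Epithelial markers were all at 0 in the heart library, and of the lymphoid list Il5, Il13 and Klrg1 were at 0 throughout. The lymphoid list summed to 12.6 RPKM in the heart, 17.1 in the kidney and 42 in the liver library. Gata3 stood at 0.022, 0.983 and 0.168 RPKM and Cd3e at 0, 0 and 5.905. Il7r, the receptor of interleukin 7, was highest in the heart library, as Areg was, but lowest in the kidney library. It stood at 5.14 RPKM in the heart (238 reads), 0.281 in the kidney and 1.98 in the liver library. Its level was 18.3-fold higher for heart over kidney (10.7 to 34). Il2ra stood at 2.5, 11.3 and 0 RPKM and Nkg7 at 2.57, 0 and 14.9, neither highest in the heart library. Foxp3, the defining factor of regulatory T cells and picked out after its values were seen, stood at 1.94, 4.57 and 4.2 RPKM in the 3 libraries. Hepatocyte markers summed to 0.455, 0.22 and 127 RPKM and endothelial markers to 9.62, 12.4 and 85.1. The part of fibroblasts, dendritic cells, lymphoid cells, cardiomyocytes or neutrophils in the Areg and Egfr values was not tested.

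**Figure D4:**
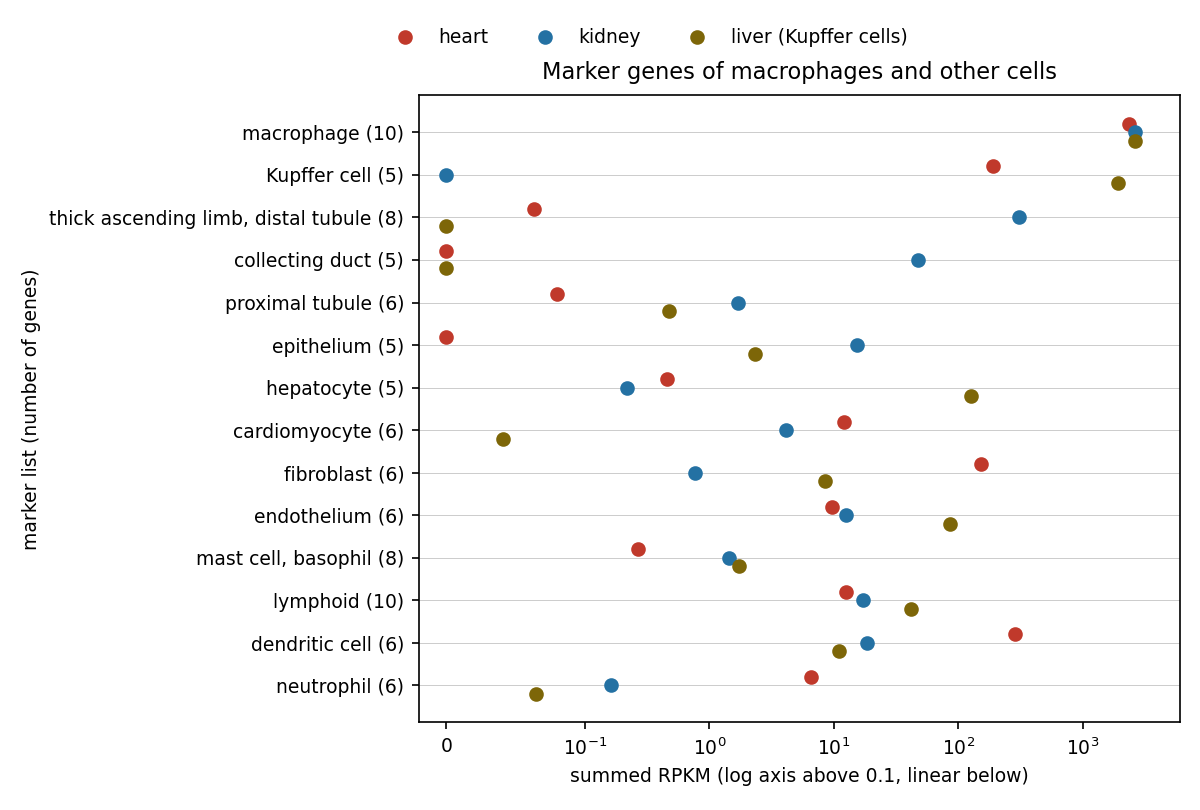
Summed RPKM of each marker list (number of genes in brackets) in the heart, kidney and liver library, on an axis that is linear below 0.1 and logarithmic above. Macrophage markers sum to 2355 to 2635 RPKM in each, nephron markers stand apart in the kidney (306 RPKM for the thick ascending limb and distal tubule) and fibroblast markers in the heart (151 RPKM). The dendritic cell sum of 283 RPKM in the heart is carried by 1 gene, Cd209a, at 270.

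Proteases that release the ligands were present in all 3 libraries. Adam17, the main sheddase of Areg and Hbegf precursors, stood at 37.6 RPKM in the heart, 38.7 in the kidney and 44.3 in the liver library. Adam10, which sheds Egf and Btc precursors, stood at 24.3, 47.4 and 60.2 RPKM. The libraries thus differed little in Adam17 beside the differences in the ligands, and Adam10 was 2.48-fold higher in the liver than the heart library (2.34 to 2.63). Rhbdf2, which encodes the ADAM17 partner iRhom2 of myeloid cells, stood at 1.3, 0.721 and 2.65 RPKM. Of the 13 genes of shedding, 10 were compared, 1 was at least 4-fold higher for heart over liver and none for heart against kidney, and 2 were higher in the kidney than the liver library; none was at least 4-fold lower. These are 10%, 0% and 20% of the list apart, against 12.5%, 7.5% and 12.7% of all genes. Medians were 0.33, -0.11 and 0.26 log2 units in these comparisons, against -0.16, -0.23 and 0.04 for all genes. Adam19 stood at 18.2, 6.53 and 0.477 RPKM, 38.1-fold higher in the heart than the liver library (28.9 to 51.4) and 13.7-fold higher in the kidney (10.3 to 18.6). Timp3, an inhibitor of ADAM17 with 21.3% of its exon bases shared with Syn3, stood at 8.14, 13.8 and 1.7 RPKM. Adam8 stood at 2.84, 1.37 and 0 and Adam9 at 25.2, 8.34 and 16.1 RPKM.

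Inhibitors of EGF receptor, RAS and ERK signalling were compared next. Of 16 genes 9 were compared, and 3 were at least 4-fold higher for heart over liver (Errfi1, Spred1 and Spred2) and none lower, against 5.33% higher and 7.13% lower among all genes, with a median of 0.54 log2 units against -0.16. Errfi1 encodes MIG6, which binds and blocks the EGFR kinase, and stood at 66.5 RPKM in the heart, 9.93 in the kidney and 5.18 in the liver library. It was 6.7-fold higher in the heart than the kidney library (6.07 to 7.4) and 12.8-fold higher than in the liver library (11.3 to 14.6). The RAS inhibitor Spred1 stood at 41.4, 16.3 and 9.45 RPKM, and its relative Spred2 at 7.1, 2.52 and 0, again highest in the heart library. Dusp6, a phosphatase of ERK, was high in the kidney library instead, at 22.2, 111 and 20.2 RPKM, 4.99-fold above the heart (4.65 to 5.37) and 5.48-fold above the liver library (5.11 to 5.89). For heart against kidney 1 gene was higher (Errfi1) and 1 lower (Dusp6), against 2.4% and 5.1% of all genes, with a median of 0.41 against -0.23. For kidney against liver 1 was higher (Dusp6) and none lower, against 7.57% and 5.1%, with a median of 0.27 against 0.04. These genes can respond to other signals, their link to the EGF receptor was not tested, and receptor activity was not measured.

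Of 20 genes that carry the signal from the receptor, 19 were compared. None was at least 4-fold apart for heart against liver or kidney against liver, where 12.5% and 12.7% of all genes were. The median differences were 0.07 between heart and liver, 0.47 between heart and kidney and -0.38 between kidney and liver, against -0.16, -0.23 and 0.04 for all genes. Grb2, the adaptor that links receptors to RAS, stood at 20.9, 16.8 and 59.9 RPKM in the heart, kidney and liver library, Stat3 at 29.2, 10.8 and 13 RPKM and Mapk3, which encodes ERK1, at 4.12, 15.5 and 7.33 RPKM.

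Genes known to act upstream of Areg in other cells include the prostaglandin E2 pathway, cAMP response factors and receptors for danger signals. Of 14 genes 13 were compared, and 4 were at least 4-fold higher for heart over liver (Ptgs2, Tlr2, Il1rl1 and Ptger4) and none lower, against 5.33% higher and 7.13% lower among all genes, with a median of 1.04 log2 units against -0.16. Ptgs2 encodes the cyclooxygenase COX-2 and stood at 249 RPKM in the heart, 32.5 in the kidney and 0.054 in the liver library, the same order as Areg. Ptger4, a prostaglandin E2 receptor that raises cAMP, stood at 33.5, 16.1 and 5.97 RPKM, and Tlr2, a receptor for bacterial lipoproteins, at 294, 109 and 34.7 RPKM. Il1rl1, the receptor of interleukin 33, stood at 9.71, 7.74 and 0.723 RPKM. Crem, a cAMP response factor that binds TGACGTCA, was high in the heart and low in the kidney library, at 146, 15.8 and 62.1 RPKM, 9.26-fold higher in the heart than the kidney library (8.54 to 10). Crem was thus lowest in the kidney library, while Areg was lowest in the liver library. Whether any gene of this list acts on Areg in these cells was not tested. For heart against kidney Crem and Ptgs2 were higher and none was lower, against 2.4% and 5.1% of all genes, with a median of 0.29 against -0.23. For kidney against liver Ptgs2 and Il1rl1 were higher and Ptger2, another prostaglandin E2 receptor, was lower, against 7.57% and 5.1% of all genes, with a median of 1.24 against 0.04. Fos and Egr1, immediate early genes, were high in all 3 libraries, Fos at 216, 350 and 135 RPKM and Egr1 at 120, 151 and 108. Ptgs2 and Tlr2 had 3.6 and 4.26 reads per base of exon in the heart library, and Fos 5.44 in the kidney library. The limit of 3 tags per position may hold down such values, which was not tested.

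**Figure D5:**
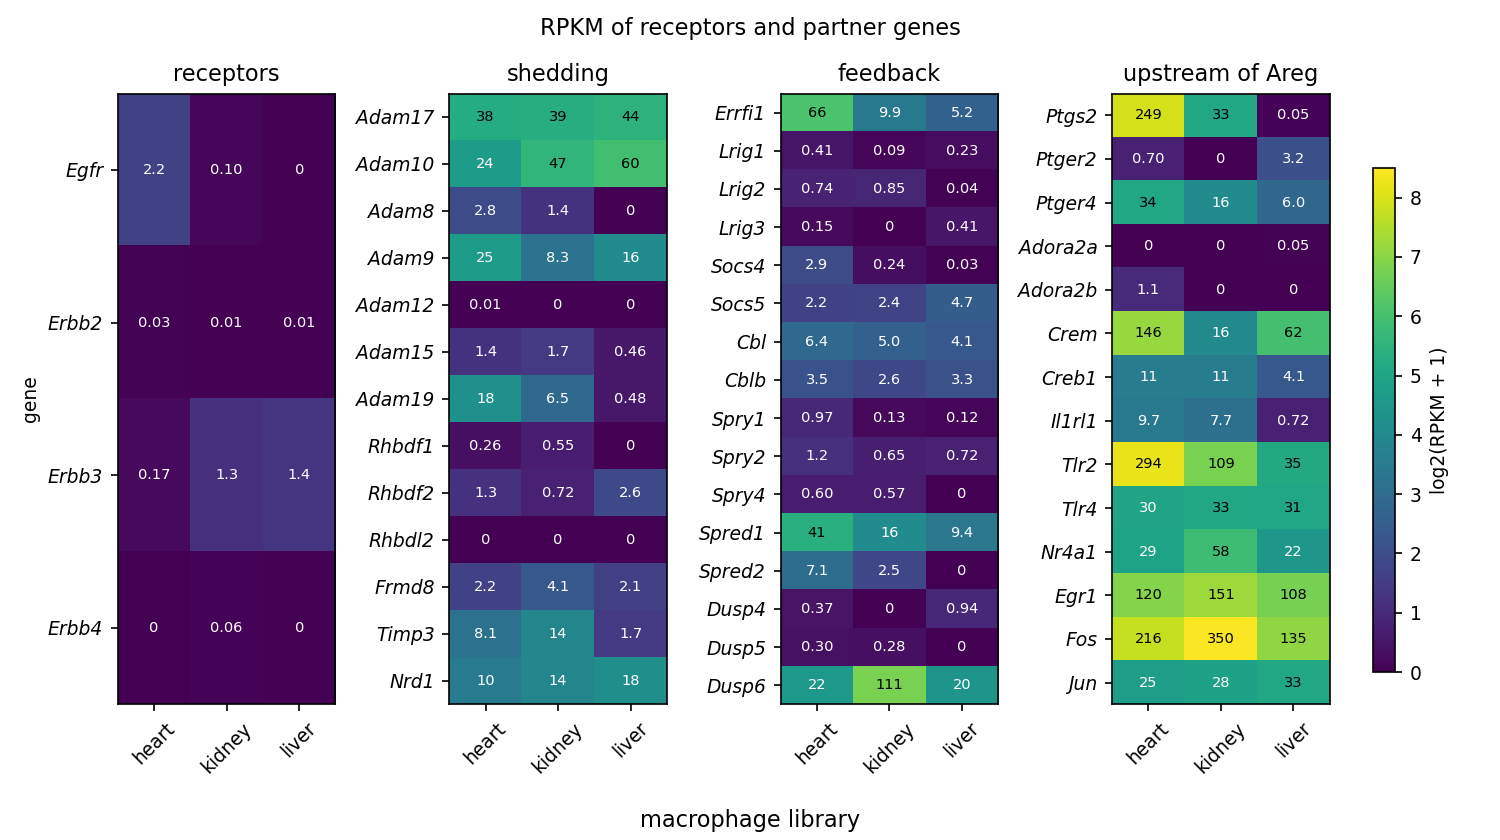
RPKM of receptors, shedding genes, inhibitors of the signalling (panel feedback) and genes upstream of Areg in the heart, kidney and liver library, with the value in each cell and colour for log2(RPKM + 1). Egfr, Errfi1, Ptgs2 and Tlr2 are highest in the heart column, Dusp6 in the kidney column, and Adam17 differs little.

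Genes with levels most like those of a ligand gene were found by the Euclidean distance of log2(RPKM + 1) over the 3 libraries. Nearest to Areg were S100a4, at 80.1, 1.56 and 0 RPKM in the heart, kidney and liver library (distance 0.339), and Pla2g2d, a secreted phospholipase, at 70.4, 2.93 and 0 (distance 0.347). Next was Ppbp, another CXC chemokine, at 54.3, 1.44 and 0 RPKM, and then Ahnak and Dennd4a. Of the exon bases of S100a4, 51.7% belong to another gene as well. Nearest to Hbegf were Eno3 at 25.9, 3.79 and 19.2 RPKM, Tfec at 26.5, 4 and 22.3 and Cd80 at 49.3, 3.68 and 14.4, followed by Gimap6 and Fosl2. Egf stood nearest to Kng2 at 0, 28.1 and 2.34 RPKM, then Cystm1, Klk1b5, Wfdc2 and Atp6v1g3, the last a proton pump subunit in the list of collecting duct markers. For Nrg4, 134 genes lay within 0.5 log2 units, since many genes stand near 1 RPKM, and the nearest were Gm20735 and Ndnf. With 3 libraries, likeness of this kind describes levels only.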

How the data were processed

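RPKM of 34711 RefSeq transcripts was deposited by the authors for 1 library each of heart, kidney and liver macrophages. Per the file headers it was made with the HOMER program analyzeRepeats.pl on mm10, with reads counted over exons on both strands, a total of 1000000 per library and -pc 3, a limit of 3 tags per position; the column names say FPKM. The length of each transcript in bases, another column that the authors deposited, was used with it. The submitters' processing notes name CASAVA and STAR without versions.

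RPKM times length was a whole multiple of 1 step in each library, which gave the reads: all 8541, 7922 and 6563 low values checked (up to 500 reads, transcripts under 3000 bases) in the heart, kidney and liver library lay within 0.1 of a whole read. The depth was 14460621, 15550851 and 16743407 reads summed over all transcripts (8751978, 9485368 and 10373696 with 1 transcript per gene), and 3 reads on 2000 bases were 0.104, 0.0965 and 0.0896 RPKM. Recovery of reads and calls was tested on simulated data with 200 changed genes.

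For each symbol the longest coding transcript was kept, or the longest noncoding one where there was none. Genes that reached 1 RPKM in some library were compared on log2(RPKM + 1), and 2 log2 units counted as apart. With 1 library per tissue there was no test, no p-value and no leaving out of a replicate. Pseudocounts of 0.1 and 5, no filter, TPM, median ratio scaling and the transcript with the highest mean RPKM were tried as alternatives. The genes named were all 9 ligands, genes within 250 kb of the chromosome 5 ligands, all receptors, up to 4 genes of each pathway list by largest difference, up to 3 of each marker list by highest RPKM, and the 5 genes nearest to Areg, Hbegf, Egf and Nrg4; a few others of the lists were named after their values were seen. A result of the signalling list is not reported here. The ligands and the lists (6 of the pathway, other ligands included, and 14 of markers; 1 marker symbol, Tf, was not found in the table) were chosen with earlier results of these data known. Exon overlaps come from GENCODE M21 (GRCm38), the build of the files. Python 3.11.15, pandas 2.3.3, numpy 2.4.6 and scipy 1.17.1 were used.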

Additional observations from a re-analysis of the deposited data

How the results depend on the processing

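No paired analysis was possible because each tissue has 1 library. The number of ligand genes at least 4-fold apart was 3 for heart against kidney (Areg, Hbegf and Egf) under all 6 alternatives. For heart against liver it was 1 as reported and 3 with a pseudocount of 0.1 and with TPM (Areg and Nrg4 higher, Egf lower in the heart). For kidney against liver it was 2 as reported, 4 with a pseudocount of 0.1 (Areg and Nrg4 higher as well), 1 with a pseudocount of 5 (Egf) and 3 with TPM (Areg higher as well). The smaller pseudocount and TPM, under which a pseudocount of 1 weighs less, also raised the share of all genes apart, to 28.5% and 23.7% for heart against liver from 12.5%, to 20.5% and 16.4% for heart against kidney from 7.5%, and to 27.7% and 24.7% for kidney against liver from 12.7%. With a pseudocount of 5 the shares were 4.05%, 1.86% and 3.41%, and with no filter 5.85%, 3.52% and 5.95%. Of 19 differences of single ligand genes, none changed sign under any of the 6 alternatives, and 50 of 114 values fell outside the counting interval. That interval set the Poisson limit of 1 library against the opposite limit of the other, on log2(RPKM + 1). Values with a pseudocount of 0.1 or 5 are on another scale, so a value outside it need not be a change beyond counting error. A pseudocount cannot change a sign, and dropping the filter leaves each difference as it was. Only TPM and median ratio scaling, and for Egf the choice of transcript, could change a sign. The other values among the 114 are thus no test of it. The median difference of all genes for heart minus liver was -0.16 as deposited, -0.02 with TPM and 0 with median ratio scaling. Depth limits Ereg, Nrg1, Nrg4 and Btc, with at most 34 reads in a library, and variation between animals was not measured.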
